A study of Mus musculus with 6 samples.

Results

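T cells, natural killer (NK) cells and B cells are the lymphocytes a piece of liver can hold, and 33 of their genes were examined in whole-liver RNA of 6 male KK/H1J mice. This inbred strain becomes obese and diabetic through many genes. The 3 BPD mice (mice 23, 28 and 36) were injected with an adenovirus for PFK-2/FBPase-2 lacking its bisphosphatase activity, an enzyme form that raises fructose 2,6-bisphosphate and with it glycolysis. The 3 GFP mice (mice 22, 29 and 31) were injected with an adenovirus for green fluorescent protein at the same stated dose. All 6 mice were 12 to 14 weeks old, weighed about 35 g, were fed freely and housed singly, and their livers were taken 7 days after injection into the tail vein. Both groups carry an adenovirus, no uninjected mice are among the samples, and the promoter that drives either transgene is not given in the sources used here. Members were taken as every probe set that the array's annotation names with exactly 1 symbol among the 33 genes. This gave 41 of 22626 probe sets for 30 of the 12393 genes named in this way, 19 for T cell, 11 for NK and cytotoxic and 11 for B cell genes, while no probe set is named here for Lck, Il2rg and Mzb1, whose expression was not analysed here.

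A T cell sees antigen through its receptor, whose signal leaves the membrane through the CD3 chains (Cd3d, Cd3e, Cd3g) and the zeta chain (Cd247). The kinase ZAP-70 then binds these chains and phosphorylates the adaptor LAT, with CD4 or CD8 as co-receptor. NK cells and cytotoxic T cells kill by releasing perforin and granzymes, and B cells carry antibody coupled to CD79A and CD79B. The liver is known as an organ rich in NK and CD8 T cells, and injected adenovirus is known to draw lymphocytes into it.

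Lymphocyte genes gave dim signals in these livers, and few differed between the groups beyond the spread between mice. Of the 41 probe sets, 14 (34.1%) had a mean log2 signal above the 40th percentile of the arrays, a signal of about 98.8, which served as the limit of background. This limit was passed by 13575 of all 22626 probe sets. Passing it were 6 of 19 T cell, 5 of 11 NK and cytotoxic and 3 of 11 B cell probe sets, for 12 genes. By a laxer measure, 22 of the 41 (53.7%) exceeded on all 6 arrays the highest signal of the control probe sets for a bacterial tryptophan gene, 23.0, against 72.6% of all probe sets. Tested with limma, 1 T cell probe set rose in BPD livers (Cd3g) and 1 fell (Zap70), while of the NK and B cell probe sets 0 were called in either direction. Cd3g passed the limit through the BPD livers alone, and in a fit without the limit it was not called (limma adjusted p = 0.0653). In the same test 8.28% of all 13575 tested probe sets were higher and 20.3% were lower, and the lymphocyte counts are to be read against these shares. Over all probe sets the numbers higher and lower were 1124 and 2758 after centring, 2265 and 1314 with deposited scaling, and 1686 and 1633 with quantile normalization. Without the limit, 4 members were higher (Cd3e, Cd8a, Il2rb and Cd37) and 1 was lower (Zap70), against 5.27% and 10.8% of all 22626. In bulk liver, fewer cells of a type and less RNA per cell cannot be told apart.

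The genes of the 3 CD3 chains gave 3 of the 4 largest positive differences among the T cell probe sets, dim ones included. They lie next to each other on chromosome 9. In the RefSeq annotation of assembly GRCm38.p6, Cd3g and Cd3d are transcribed away from each other from starts 1355 bases apart, and Cd3e starts 27825 bases from Cd3d. The 250 bases before each start are shown because these neighbours had the values described next. Capitals mark AGGAAG, a form of the core bound by ETS factors, and CAGGTG, an E-box, each on either strand.
Cd3g (chr9:44980432-44980681, minus strand): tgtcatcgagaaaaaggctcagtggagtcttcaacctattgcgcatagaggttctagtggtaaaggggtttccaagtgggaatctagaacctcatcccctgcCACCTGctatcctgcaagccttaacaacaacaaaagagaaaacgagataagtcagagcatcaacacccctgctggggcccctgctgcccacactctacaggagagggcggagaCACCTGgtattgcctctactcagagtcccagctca
Cd3d (chr9:44981536-44981785, plus strand): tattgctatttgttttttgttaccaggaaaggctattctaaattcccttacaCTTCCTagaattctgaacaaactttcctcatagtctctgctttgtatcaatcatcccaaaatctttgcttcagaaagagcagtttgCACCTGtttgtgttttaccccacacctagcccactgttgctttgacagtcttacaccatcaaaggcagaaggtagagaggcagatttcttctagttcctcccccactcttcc
Cd3e (chr9:45009612-45009861, minus strand): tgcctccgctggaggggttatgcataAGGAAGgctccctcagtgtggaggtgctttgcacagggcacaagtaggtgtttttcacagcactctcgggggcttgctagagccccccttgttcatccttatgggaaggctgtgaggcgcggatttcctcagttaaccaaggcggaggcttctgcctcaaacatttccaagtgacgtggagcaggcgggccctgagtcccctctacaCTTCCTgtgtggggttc
The Cd3g window holds 2 E-boxes, that of Cd3d 1 E-box and 1 ETS core, and that of Cd3e 2 ETS cores. The promoter table held 22 of the 33 genes, Lck and Il2rg among them, with 26 windows. AGGAAG was found in 14 of these windows and in 29.5% of all 32851 windows, CAGGTG in 12 against 17.2%, and TGTGGT, a core bound by RUNX factors, in 10 against 14.0%. A TATAAA was in 0 of the 26 against 12.4%, and ATTTGCAT, the octamer of B cell promoters, in 0 against 1.60%. These matches, searched on both strands and free to overlap, describe letters and not bound sites.

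Cd3g encodes the gamma chain of CD3. Its signal was 133, 269 and 133 in BPD mice 23, 28 and 36 and 47.7, 92.9 and 54.3 in GFP mice 22, 29 and 31. Each BPD liver exceeded each GFP liver. The means were 178 ± 78.9 and 64.9 ± 24.4 (SD, n = 3 each), and after centring each array on its median the log2 difference was 0.93 ± 0.29 (SE, limma adjusted p = 0.0382). No GFP array reached the limit of background for Cd3g, so this difference is set against a group below the limit. The call held with deposited scaling (1.23, adjusted p = 0.0292) and quantile normalization (0.98, adjusted p = 0.0430). Both apply the same percentile as limit, and in the fit without the limit Cd3g was not called (adjusted p = 0.0653). With the 3' to 5' Gapdh ratio, a measure of RNA integrity, as a covariate the difference was 0.80 and did not pass (adjusted p = 0.101). It did not pass either without BPD mouse 23 (1.05, adjusted p = 0.0564) or 28 (0.66, 0.185), or without GFP mouse 22 (0.82, 0.103) or 31 (0.85, 0.0878).

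**Figure D1:**
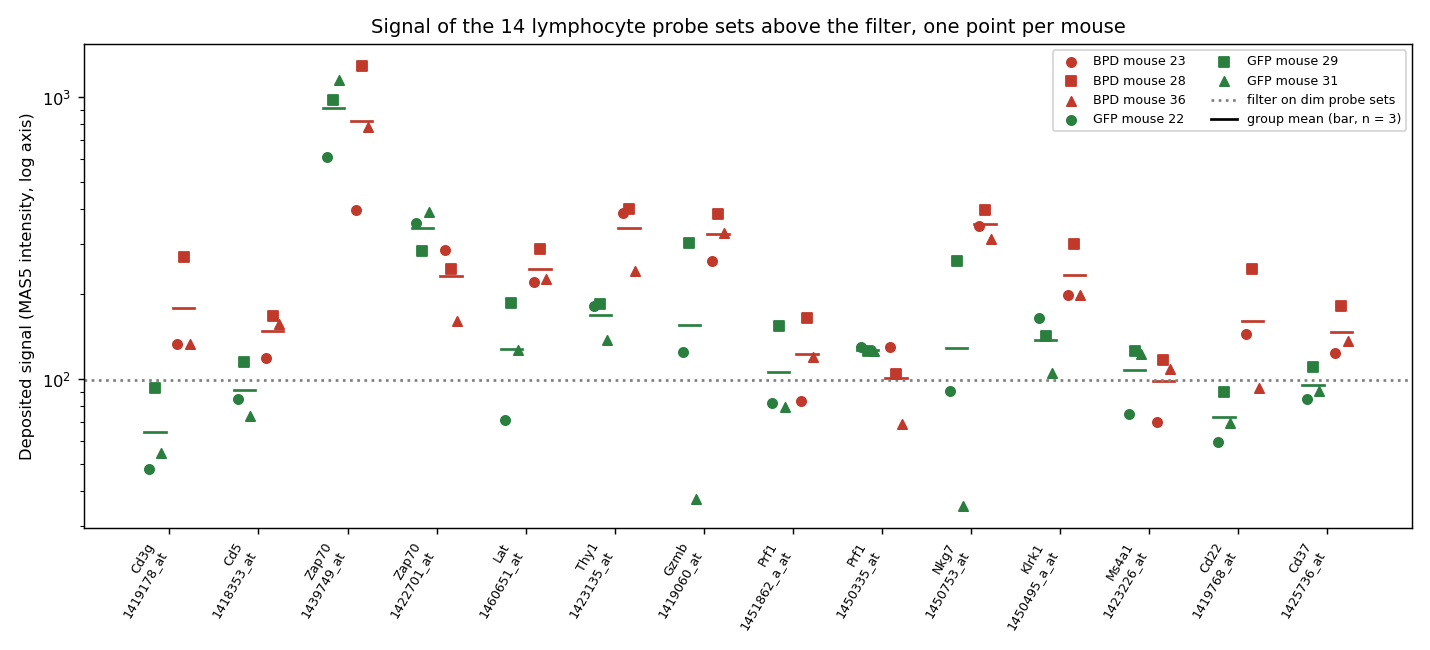
Deposited MAS5 signal (log axis) of the 14 lymphocyte probe sets above the limit of background, with 1 point per mouse, BPD in red and GFP in green, and a bar at each group mean. The Cd3g points of the 3 BPD livers (133 to 269) lie above those of the 3 GFP livers (47.7 to 92.9), and for Gzmb and Nkg7 GFP mouse 29 lies far above GFP mouse 31.

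The other CD3 genes were too dim to be tested with the rest. Cd3d, the delta chain, had signals of 137, 274 and 86.6 in the BPD livers and of 18.8, 82.8 and 12.1 in the GFP livers. BPD mouse 36 and GFP mouse 29 nearly meet there, and after centring the groups overlapped (difference 1.55). Cd3e, the epsilon chain, had 78.8, 94.3 and 114 against 15.4, 29.7 and 19.9, with no overlap and a difference of 1.26. In a fit without the filter Cd3e passed (limma adjusted p = 0.0109), whereas Cd3d (0.0629) and Cd3g (0.0653) did not. The Cd3d and Cd3e signals of GFP mice 22 and 31 lay under the highest bacterial control signal of 23.0. The sizes of these differences are therefore not well measured. The 4 probe sets of Cd247, the zeta chain that CD3 shares with NK receptors, differed by -0.08 to 0.70, and the groups overlapped in each.

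Among the co-receptors, the CD8 genes and Cd4 were dim. The alpha chain Cd8a had 54.4, 49.7 and 61.7 in BPD livers and 3.89, 27.7 and 7.98 in GFP livers with probe set 1425335_at (difference 1.06, limma adjusted p = 0.0412 without the filter). Its other probe set, 1451673_at, differed by 0.17 (adjusted p = 0.659 without the filter) with overlap, so the Cd8a probe sets disagree in size. With 1425335_at GFP mice 22 and 31 lay under the highest bacterial control signal, so that size is not well measured. Cd8b1, the beta chain, differed by 0.91 with overlap, GFP mouse 29 (55.6) lying between the BPD livers (49.7 to 84.6). Both Cd4 probe sets had signals between 3.53 and 29.6 in every liver and differences of -0.27 and -0.37 after centring. With deposited scaling these were 0.03 and -0.06, and the deposited signals of the groups overlapped.

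Zap70, the kinase recruited to the CD3 chains, went the other way. With probe set 1422701_at its signal was 287, 245 and 160 in BPD livers and 355, 283 and 390 in GFP livers. On the deposited scale BPD mouse 23 and GFP mouse 29 overlap narrowly, and after centring all BPD livers lay below all GFP livers. It fell by 0.87 ± 0.24 on the log2 scale (means 230 ± 64.8 and 343 ± 54.6, SD, n = 3 each, limma adjusted p = 0.0250). This call was kept with quantile normalization (-0.81, adjusted p = 0.0356) and lost with deposited scaling (-0.57, adjusted p = 0.103) and with the Gapdh covariate (-0.69, adjusted p = 0.0617). Without BPD mouse 28 or 36 or GFP mouse 22 or 31 it did not pass either (adjusted p from 0.0600 to 0.0802). The second probe set, 1439749_at, had 395, 1286 and 781 in BPD and 611, 977 and 1149 in GFP livers and did not pass (-0.56 ± 0.35, adjusted p = 0.262). Both Zap70 probe sets were above the limit of background in all 6 livers.

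Lat, the scaffold that ZAP-70 phosphorylates, had 219, 288 and 226 in BPD livers against 71.6, 186 and 126 in GFP livers. The groups did not overlap, but the difference of 0.62 ± 0.26 did not pass (limma adjusted p = 0.0935). Thy1, a surface protein of T cells that fibroblasts can also carry, had 387, 399 and 241 against 181, 184 and 138, again without overlap. Its difference of 0.64 ± 0.22 just missed the threshold (adjusted p = 0.0518) and passed with deposited scaling (0.94, adjusted p = 0.0179). Of 10 fibroblast and stellate markers 4 were higher, against 8.75% of all 8151 genes, each on its brightest probe set above the limit. Of these 4, Col1a1 passed the limit through the BPD livers alone. The summed signal of the markers was 5675 to 19082 in BPD and 3907 to 5161 in GFP livers. Their median centred log2 signal over 18 probe sets was 2.17, 1.74 and -0.72 in BPD mice 23, 28 and 36. In GFP mice 22, 29 and 31 it was -0.10, -0.21 and -0.66, so BPD mouse 36 lay below each GFP liver. The part of these markers in the Thy1 values was not tested.

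The remaining T cell surface genes overlapped between the groups after centring, although the deposited Cd5 signals did not. Cd5, which dampens receptor signalling, had 118, 166 and 156 against 85.0, 115 and 73.7 (0.31 ± 0.22, limma adjusted p = 0.307). Cd2, an adhesion receptor of T and NK cells, ranged from 42.6 to 72.0 and from 9.87 to 45.4 (difference 0.49, below the limit). Cd6, a relative of Cd5, ranged from 69.0 to 151 and from 11.3 to 122 (difference 0.39, below the limit), with only GFP mouse 22 at a low value.

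Genes of killing and of NK receptors were split. Nkg7, a granule protein of cytotoxic cells, had 347, 397 and 314 in BPD livers and 90.3, 260 and 35.3 in GFP livers. Its groups did not overlap, and the GFP livers alone spanned from 35.3 to 260. The difference of 1.37 ± 0.46 (2.59-fold) just missed the threshold (limma adjusted p = 0.0510). It passed with deposited scaling (1.68, adjusted p = 0.0433) and most clearly without GFP mouse 29 (1.95, adjusted p = 0.00444). Granzyme B (Gzmb) had 262, 385 and 328 against 124, 303 and 37.4, so that GFP mouse 29 lay among the BPD livers. At 1.03 ± 0.49 it did not pass (adjusted p = 0.143), though it did without GFP mouse 29 (1.60, adjusted p = 0.0182).

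Perforin (Prf1), which opens the way for granzymes into the target cell, did not pass in either direction. With probe set 1450335_at it had 130, 104 and 68.8 in BPD and 129, 125 and 125 in GFP livers (-0.62 ± 0.25, limma adjusted p = 0.0871). With 1451862_a_at it had 83.6, 165 and 119 against 82.0, 154 and 79.3 (-0.10 ± 0.27, adjusted p = 0.808), a difference that turned to 0.20 with deposited scaling. Granzyme A (Gzma) and granzyme K (Gzmk) were below the limit, with signals of 45.9 to 109 in BPD and 30.9 to 115 in GFP livers and differences of -0.35 and -0.17.

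Among the receptors, Klrk1, which encodes the activating receptor NKG2D, had 198, 300 and 199 against 164, 142 and 104. This difference of 0.39 ± 0.22 did not pass (limma adjusted p = 0.207), and after centring the groups overlapped. Klrd1, the CD94 chain of NK receptors, differed by 0.67 below the limit, from 30.3 to 87.8 in GFP and 102 to 184 in BPD livers. After centring the Klrd1 groups overlapped. Ncr1, the most NK-specific of these genes, differed by -0.19, with 33.6, 62.1 and 56.5 in BPD and 40.1, 56.3 and 39.2 in GFP livers. The probe sets of Il2rb, a chain of the receptor for IL-2 and IL-15, disagreed. With 1448759_at the signals were 94.1, 126 and 81.8 in BPD and 16.7, 17.4 and 6.08 in GFP livers (difference 1.68). All 3 GFP values lay under the highest bacterial control signal, so that the size of this difference is not well measured. With 1417546_at they ran from 17.8 to 145 and from 33.5 to 84.4 (-0.09).

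**Figure D2:**
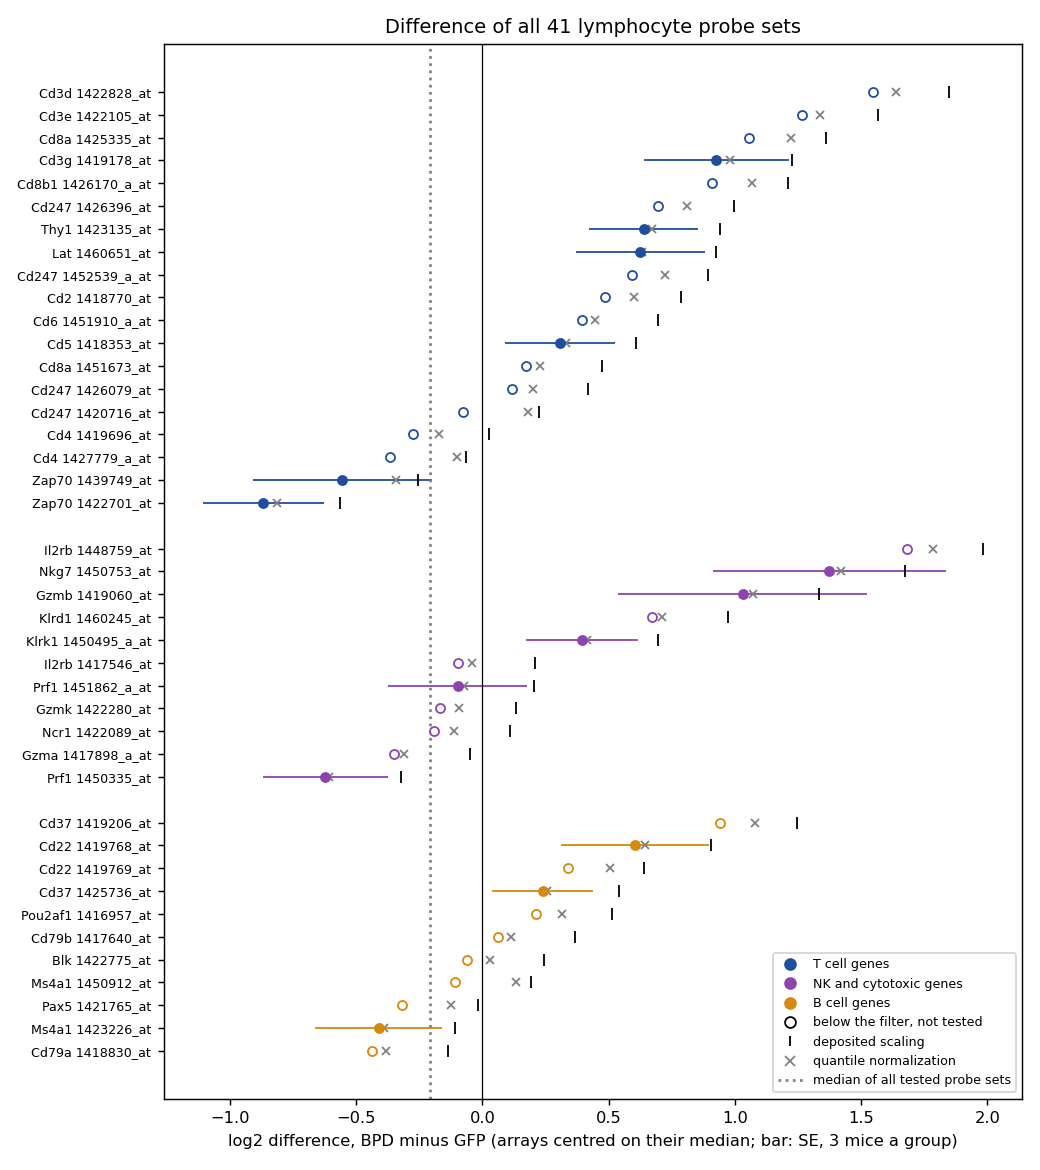
Log2 difference, BPD minus GFP, of all 41 lymphocyte probe sets by class after centring, with SE for the 14 tested (filled) and none for the 27 below the limit (open); ticks and crosses give deposited scaling and quantile normalization. T cell genes run from Cd3d (1.55) to Zap70 (-0.87), and the scalings shift the points together.

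B cell genes showed no called difference. Cd22, an inhibitory receptor of B cells, had 144, 246 and 92.8 in BPD and 59.8, 89.7 and 69.7 in GFP livers with probe set 1419768_at (0.61 ± 0.29, limma adjusted p = 0.147). BPD mouse 36 lay beside GFP mouse 29, and no GFP array reached the limit. The difference was 0.89 with BPD mouse 36 left out (adjusted p = 0.0359). Ms4a1, which encodes CD20, had 70.0, 117 and 108 against 74.8, 125 and 123 (-0.41 ± 0.25, adjusted p = 0.240). Cd37, a tetraspanin of B cells that other leukocytes also carry, had 123, 181 and 136 against 85.0, 110 and 90.6 with 1425736_at (0.24 ± 0.20, adjusted p = 0.389). The other probe set, 1419206_at, had 69.3, 45.6 and 38.8 against 10.3, 18.8 and 7.29 (difference 0.94), the GFP values again lying under the control signal. The other probe sets of Cd22 and Ms4a1 lay below the limit, with differences of 0.34 and -0.11.

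The B cell receptor genes Cd79a and Cd79b lay below the limit, with differences of -0.44 and 0.06. Cd79a ranged from 57.6 to 73.0 in BPD and from 55.4 to 87.2 in GFP livers. Pax5, the factor that fixes B cell identity, stayed between 5.52 and 20.1 in all livers, under the highest signal of the bacterial control probe sets. Pou2af1, a co-activator at octamer sites, reached at most 43.6 in BPD and 30.5 in GFP livers (0.21), and Blk, a kinase of B cells, had 80.1, 66.1 and 16.2 against 31.9, 43.1 and 38.2 (-0.06). At an unadjusted limma p under 0.05 stood 0 B cell probe sets, 1 NK and cytotoxic probe set that was higher (Nkg7) and 1 that was lower (Prf1), and 3 T cell probe sets that were higher and 1 that was lower. At that threshold 11.9% of all 13575 probe sets were higher and 30.0% were lower.

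Set side by side over all 41 probe sets, dim ones included, the median difference of T cell genes was above that of NK and B cell genes. Over genes above the limit, each on its brightest probe set, the medians were 0.62 for 5 T cell and 0.71 for 4 NK and cytotoxic genes. That reversed order of T and NK rests on the change from probe sets to genes as well as on the limit. It leaves out the tested probe sets Zap70 1422701_at (-0.87) and Prf1 1451862_a_at (-0.10). The median difference was 0.49 for the 19 T cell, -0.09 for the 11 NK and cytotoxic and 0.06 for the 11 B cell probe sets, against -0.22 for all 22626. With deposited scaling these medians were 0.79, 0.21, 0.36 and 0.08, and with quantile normalization 0.60, -0.04, 0.13 and -0.06. Differences were above 0 in 14 of 19 T cell, 5 of 11 NK and 6 of 11 B cell probe sets, and in 32.2% of all. Each BPD liver exceeded each GFP liver in 9 of the 41 (22.0%), against 10.5% of all probe sets, and was below each in 5 (12.2%), against 29.8%. With quantile normalization the counts were 9 against a background of 15.9%, and 3 against 19.5%. The contrast between the classes is a description, without a test.

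Of the GFP livers, mice 22 and 31 were low for T cell genes and mouse 29 was not. The median centred log2 signal of the 19 T cell probe sets was between -1.03 and -0.95 in the BPD livers, and -2.03, -0.93 and -1.93 in GFP mice 22, 29 and 31. GFP mouse 29 thus stood level with the BPD livers. Each of these medians lay below the limit of background, -0.64 on this scale. Those of GFP mice 22 and 31 stood at signals of 20.9 and 25.5, around the highest bacterial control signal of 23.0. GFP mouse 29 was the highest GFP liver in 13 of 19 T cell probe sets (68.4%), against 21.0% of all probe sets. For NK and cytotoxic genes the medians were -0.79, -0.40 and -0.62 in BPD and -0.68, -0.41 and -0.86 in GFP livers, and for B cell genes -1.15, -1.37 and -1.81 against -1.65, -1.55 and -1.54. Both of these overlap.

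**Figure D3:**
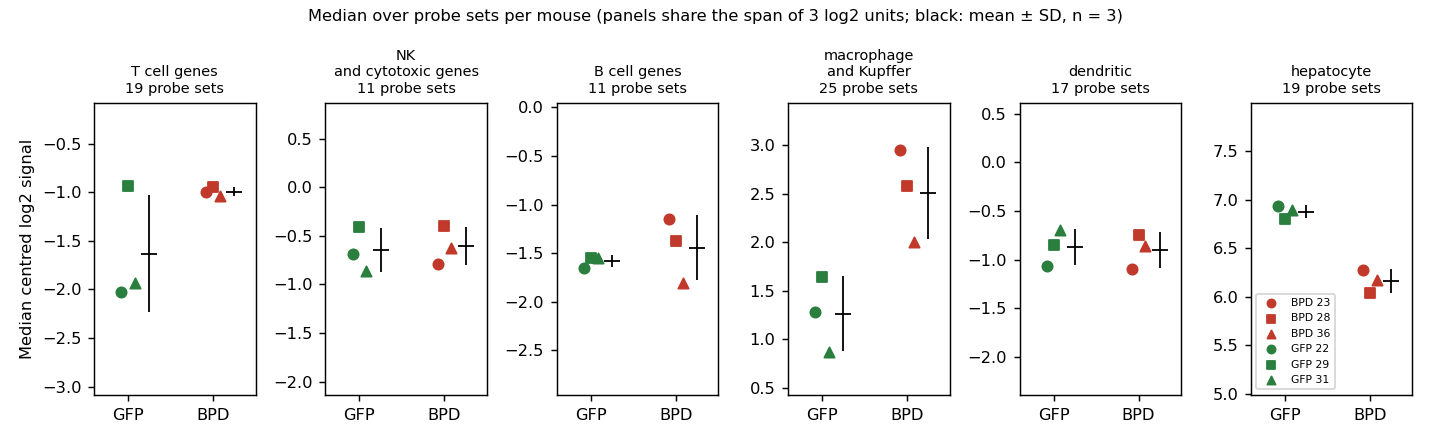
Median centred log2 signal per mouse over the probe sets of each class and of 3 marker lists of other cell types, with the group mean ± SD (n = 3) in black. For T cell genes, whose medians all lie below the limit of background, GFP mouse 29 (-0.93) sits with the BPD livers. For macrophage markers all BPD livers lie above all GFP livers.

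Most macrophage markers were higher in BPD livers. The Kupffer cell markers Clec4f (-0.58, limma adjusted p = 0.471) and Vsig4 (0.48, adjusted p = 0.557) were not called, and Cd163 was too dim to be tested. Of all 8151 genes, each on its brightest probe set above the limit, 8.75% were higher and 22.1% lower. The marker counts here are to be read against these shares. Of 15 measured macrophage markers 12 were higher and 0 lower, and their summed signal was 21355 to 44352 in BPD livers and 9549, 17925 and 5902 in GFP mice 22, 29 and 31. GFP mouse 29 was the highest GFP liver in 19 of the 25 macrophage probe sets, but its summed signal lay below that of each BPD liver. GFP mouse 31 was the lowest in 22 of the 25, whereas for T cell genes mouse 22 was the lowest in 11 of 19. Dendritic cell markers, of which 3 of 5 measured were higher, summed to 9193 to 15194 and 3521 to 8514. These 3 were Itgax, H2-Ab1 and H2-Eb1, which macrophages also express, and the median over all 17 dendritic probe sets was -0.90 in BPD and -0.87 in GFP livers. None of these macrophage and dendritic markers was listed at 0, the lowest single signals being 5.31 and 4.28. Of 7 measured neutrophil markers 5 were higher and 0 lower, with sums of 9827 to 19816 and 1420 to 3882. Most of these sums came from Lcn2 alone, with 12421, 11298 and 7796 in BPD and 3264, 2043 and 787 in GFP livers. Mpo and Csf3r were not called (limma adjusted p = 0.0579 and 0.0541), and Camp and Elane were too dim to be tested. The part of macrophages, dendritic cells and neutrophils in the lymphocyte values was not tested. Hepatocyte markers, which check the labelled tissue, were bright in all livers and summed to 142820 to 155595 in BPD and 202880 to 220645 in GFP livers. All 12 measured were lower after centring, but 9 with deposited scaling and 3 with quantile normalization.

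Leaving out single mice changed the lymphocyte calls. Without GFP mouse 29 there were 2 T cell probe sets higher (Cd3g 1.11, Lat 0.85) and 2 NK and cytotoxic ones (Nkg7 and Gzmb). The number of T cell probe sets higher was 0 without BPD mouse 23 or 28 or GFP mouse 22 or 31. Without BPD mouse 36 it was 2, since Thy1 then passed (0.84, limma adjusted p = 0.0151).

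**Figure D4:**
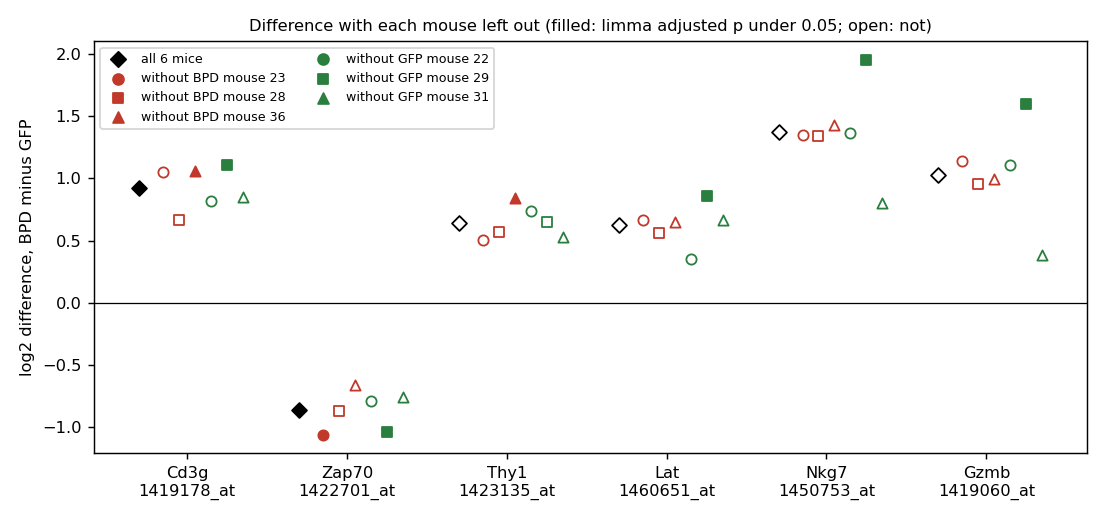
Log2 difference, BPD minus GFP, of 6 lymphocyte probe sets with all mice (diamond) and with each mouse left out, filled where the limma adjusted p was under 0.05. Nkg7 goes from 0.80 without GFP mouse 31 to 1.95 without GFP mouse 29, and Cd3g from 0.66 to 1.11, and no value crosses 0.

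Other genes of lymphocytes were read from lists, on the gene's brightest probe set above the limit. At this level 8.75% of 8151 genes were higher and 22.1% lower. Of 24 further genes of antigen receptor signalling with a probe set, 14 were measured, 5 were higher and 0 lower. Of the 9 not called, Tec (-0.63, limma adjusted p = 0.0539) and Nfatc2 (-0.62, 0.0567) just missed being lower. Ptpn6 (0.53, 0.0549) and Pik3cd (0.78, 0.0590) just missed being higher. Ptprc, which encodes the phosphatase CD45 of all leukocytes, had 1420, 1919 and 1196 in BPD and 339, 685 and 151 in GFP livers. It rose by 1.81 ± 0.41 (limma adjusted p = 0.0107) and passed with each mouse left out. The adaptor Lcp2 rose by 1.08 ± 0.26 on the log2 scale, and the kinase Syk by 1.49 ± 0.36, the adaptor Blnk by 0.96 ± 0.29 and the kinase Fyn by 0.67 ± 0.21 (adjusted p from 0.0139 to 0.0414). Myeloid cells are known to express Lcp2, Syk and Blnk as well. With BPD mouse 28 left out 1 gene of this list was higher, with BPD mouse 23 left out 2, with GFP mouse 22 left out 2 and with GFP mouse 31 left out 3.

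Of 34 further T and NK genes with a probe set only 10 were measured, 4 of them higher and 0 lower. Of the 6 not called, Ccl5 differed by 1.23 (limma adjusted p = 0.0627) and Cd96 by -0.56 (adjusted p = 0.0713). Cd160, S1pr1, Klrg1 and Icos differed by -0.45 to -0.22, against a median of -0.22 for all 8151 genes. Gimap4, a GTPase of T cells, rose by 1.12 ± 0.30 and the integrin chain Itgal by 1.74 ± 0.53. The chemokine receptors Cxcr6 and Cxcr3, carried by liver T and NK cells, rose by 0.78 ± 0.21 and 0.93 ± 0.30 (limma adjusted p from 0.0209 to 0.0457 for these 4). Cxcr6 passed the limit through the BPD livers alone. Itgal and Cxcr3 did not pass with quantile normalization (adjusted p = 0.0541 and 0.0617). With the Gapdh covariate 0 of the list were higher, the differences of these 4 being 0.71 to 1.29 (adjusted p from 0.0546 to 0.0835). Leaving out BPD mouse 28 gave 0 higher, and 1 was higher without BPD mouse 23 or GFP mouse 22 or 31.

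Of 25 further B and plasma cell genes 11 were measured, 4 higher and 2 lower. The 5 not called were Ighm (-0.06 ± 0.21, limma adjusted p = 0.846), Sdc1 (-0.13), Prdm1 (0.41), Bcl6 (0.80) and Jchain, described below. Cd83, also a gene of dendritic cells, rose by 1.23 ± 0.27, Irf8 by 0.91 ± 0.23 and Cd72 by 1.49 ± 0.48. Cd83 passed the limit through the BPD livers alone. Cd24a, which immature and ductal cells also express, rose by 3.62 ± 0.28, from 84.5 ± 41.5 to 1430 ± 135 (SD, n = 3 each, limma adjusted p = 1.7e-04). Cd72 did not pass with quantile normalization (adjusted p = 0.0655). Xbp1 and Edem1, which serve protein secretion and which hepatocytes also express, fell by 0.80 ± 0.19 and 0.68 ± 0.16, and neither passed with deposited scaling or quantile normalization (adjusted p from 0.0714 to 0.338). In this list 1 gene was higher without BPD mouse 28 and 2 without BPD mouse 23, and 1 was lower without BPD mouse 28 or GFP mouse 22. Jchain, the joining chain of secreted antibody and a gene of plasma cells, had 388, 531 and 137 in BPD and 82.1, 103 and 132 in GFP livers. At 1.13 ± 0.39 it did not pass (adjusted p = 0.0560), and without BPD mouse 36 it was 1.65 (adjusted p = 0.00134).

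Array medians were 174 to 197 in BPD and 135 to 157 in GFP livers, so the choice of scaling moves every difference. The log2 ratio of 3' to 5' Gapdh signal was -0.44 to -0.21 in BPD and -0.35 to -0.15 in GFP livers, and the groups overlapped. The isoform of the PFK-2 family that the virus carries is not given in the sources used here, so no probe set could check the injected gene, and the median difference of all tested probe sets was -0.21 after centring, 0.10 with deposited scaling and -0.06 with quantile normalization.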

How the data were processed

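RNA of each liver was hybridised to its own one-colour array. Per the submitters' processing notes, the deposited signal intensities, on a linear scale with 1 value per probe set and array, were made with MAS5, whose version is not given in the sources used here. On all 6 arrays the mean of the values, with the top and bottom 2% removed, was 499.9. Of 22690 probe sets 64 controls were left out, and of the other 22626 there were 20380 with 1 gene symbol, 691 with several and 1555 unnamed here.

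Values were taken as log2(signal + 16.3), the constant being 10% of the median of all values, which understates differences of dim probe sets. Array medians differed 1.46-fold, over the ratio of 1.25 set as limit, so each array was centred on its median. Probe sets with a mean above the 40th percentile were kept (13575) and fitted with limma 3.58.1 in R 4.3.3 (lmFit, eBayes with an intensity trend, 2-sided, 4 residual and 5.44 prior degrees of freedom), with Benjamini-Hochberg adjustment over all of them and a threshold of 0.05. SE is that of the moderated fit, and n = 3 mice limits the precision. The fit was tested on simulated data of 13575 probe sets, 200 of them changed, with independent normal noise at the fitted variances. It recovered 79% of changes of 1 and 98% of changes of 2 on the log2 scale, with 11 false calls. In the data themselves 28.6% of probe sets were called, so these rates need not hold there.

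The members and lists were chosen with earlier results of these data known. Members above the limit are given in each mouse, others by range or, for some, in each mouse, and up to 6 called genes are named from each list. Jchain and the other uncalled genes of these lists were named after their values were seen. Promoters come from RefSeq (GRCm38.p6). Mouse numbers are not shared between the groups.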

Additional observations from a re-analysis of the deposited data

How the results depend on the processing

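No paired analysis was possible because the groups share no mouse numbers. Alternatives for the lists of other genes were added after seeing the data. Leaving out a mouse gave 628 to 1228 probe sets higher and 1378 to 2763 lower over all, 0 to 2 higher and 0 to 1 lower among T cell, 0 to 2 higher among NK and 0 to 1 higher among B cell probe sets. For the lists it gave 1 to 7 higher and 0 to 1 lower antigen receptor genes, 0 to 4 higher T and NK genes, and 1 to 4 higher and 1 to 2 lower B and plasma genes.

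Deposited scaling gave 2265 higher and 1314 lower probe sets, 2 T cell probe sets higher and 0 lower, 1 NK probe set higher, 9 antigen receptor genes higher and 0 B and plasma genes lower. Quantile normalization gave 1633 lower probe sets, 2 T and NK genes higher and 0 B and plasma genes lower. A constant of 20% of the median gave 1 NK probe set higher. Without the filter 2 T cell, 1 NK and 1 B cell probe sets were higher. With the 60th percentile as filter, which tests fewer probe sets, 698 probe sets, 0 T cell probe sets, 3 antigen receptor, 1 T and NK and 2 B and plasma genes were higher, and 1 antigen receptor gene lower. Leaving out probe sets able to match more than 1 transcript, 723 probe sets, 2 T cell probe sets, 1 NK probe set and 2 T and NK genes were higher. With the Gapdh ratio as a covariate 0 T cell probe sets were higher or lower and 0 T and NK genes higher. Array weights gave 2 T cell probe sets higher and 2 antigen receptor genes lower. Robust eBayes gave 1 antigen receptor gene lower, and no intensity trend 1 antigen receptor and 1 T and NK gene lower. Where no construction of the alternative shows it, the cause was not tested.

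Among single genes, Prf1 (1451862_a_at) turned to 0.20 with deposited scaling, to 0.09 without BPD mouse 23 and to 0.12 without GFP mouse 29, in a range of -0.26 to 0.12 over the mice left out. Apart from the uncalled genes of the lists other than Jchain, all other named and tested probe sets kept their direction under every alternative run on them. Some of those uncalled genes turned with deposited scaling, among them Ighm (0.24) and Icos (0.08). Signal near background limits most members.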
